A study of Homo sapiens with 12 samples.

Results

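The expression of 10 genes of plasminogen activation and blood clotting was examined in oncogene-induced senescence (OIS) and XPO7 knockdown. They were chosen by symbol, not by their values, and are PLAU, PLAUR, PLAT, F3, THBD, TFPI, TFPI2, PROCR, ANXA2 and F2R, 10 of the 62069 genes in the count table. All 10 had enough counts to be tested, as did 15284 genes in all. The RNA-seq libraries came from IMR90 ER:RAS cells at passage 13. This is a line of human lung fibroblasts that carries RAS joined to an estrogen receptor domain, which lets 4-hydroxytamoxifen (4OHT) switch RAS on and send the cells into senescence.

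There were 4 groups of 3 libraries. The non-induced group had no 4OHT-driven induction (libraries T, A and C). The induced group had 100 nM 4OHT (T, A and B), and 2 further induced groups (each T, A and B) also expressed an shRNA against XPO7, a nuclear transport receptor: shXPO7_3 or shXPO7_5. All groups carried ER:RAS and are labelled as day 5 of induction, in a culture of 7 days with new medium on day 4. The labels name no control vector for the first 2 groups and no non-induced knockdown. In its RNA-seq comparisons the paper names the cells without an XPO7 shRNA vector (no 4OHT) and vector/4OHT. Separate cultures are not stated for the 3 libraries of any group, and p-values therefore speak only of the spread among the libraries, part or all of which may be technical.

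Plasminogen is cut to plasmin, a protease that dissolves fibrin and activates other proteases at the cell surface. The cutting is done by urokinase (PLAU), which works bound to its receptor (PLAUR), or by tissue plasminogen activator (PLAT), and it is held back by inhibitors, many of them serpins. Clotting starts when tissue factor (F3) binds factor VII, and TFPI stops that complex. Thrombomodulin (THBD) and the endothelial protein C receptor (PROCR) turn thrombin towards the activation of protein C, an anticoagulant, while F2R (PAR1) is the receptor through which thrombin signals to cells. Fibroblasts carry tissue factor and urokinase, and several of these genes are named among the factors that senescent cells secrete or display.

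Depth ran from 28534141 to 60397769 counts per library. XPO7 stood at 127 to 144 CPM (counts scaled to library size) in the 6 libraries without an shRNA, at 26.4 to 28.7 CPM with shXPO7_3 and at 50.8 to 54.0 CPM with shXPO7_5. Every library labelled with an shRNA was thus below every library without. All 10 fibroblast markers were detected. Their summed level was 45178 to 53527 CPM in non-induced, 39810 to 46052 CPM in induced and 38079 to 49733 CPM in knockdown libraries. On induction the group means of FN1 (22556 to 24348 CPM) and PDGFRA (246 to 253 CPM) went up and those of the others down. Among the latter DCN went from 987 to 95.6 CPM and COL1A2 from 7481 to 3351 CPM. Of 8 endothelial markers 4 passed the filter on low counts, and PECAM1 and CDH5 were at 0 in every library. The summed endothelial level was 15.8 to 16.2 CPM in non-induced libraries, 14.9 to 17.2 CPM in induced libraries, 17.9 to 20.2 CPM with shXPO7_3 and 15.7 to 19.0 CPM with shXPO7_5. Within it TIE1 rose on induction (1.06 to 6.21 CPM, adjusted p = 1.13e-07) and TEK fell (12.4 to 6.31 CPM, adjusted p = 1.52e-06). The summed level of the 5 epithelial markers was 66.2 to 78.5 CPM in non-induced libraries, 35.8 to 40.4 CPM in induced libraries and 35.9 to 51.3 CPM in the knockdown libraries, mostly through KRT19, which fell from 33.6 to 2.01 CPM. The 6 leukocyte markers summed to 0.437 to 0.765 CPM in non-induced, 0.957 to 1.19 CPM in induced and 0.876 to 1.34 CPM in knockdown libraries, most of it CSF1R (0.354 CPM non-induced, 0.844 CPM induced).

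The libraries of a group differed in how counts leaned with the GC content of transcripts. This lean, the GC tilt, is the Spearman correlation across 14864 genes between transcript GC content and a library's log ratio to its group mean. It ran from -0.70 in shXPO7_5 library A to 0.72 in shXPO7_5 library B. The 3 induced libraries were closest to each other, between -0.20 and 0.31. An offset for GC content and length was among the alternative analyses.

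Promoter sequence was at hand for 7 of the 10 genes, from RefSeq on GRCh38.p14, and the 250 bases before each start were searched on both strands for 4 motifs. The AP-1 motif TGANTCA, which reads the same on both strands, was in 4 of these 7 genes and in 8.06% of all 27305 genes with a window (6.57% of 35116 windows). RAS signalling through MAPK is known to act on AP-1 factors, and a part of AP-1 in the changes on induction was not tested. Of the 4 genes with the motif, 3 rose on induction and ANXA2 fell, and of those without it PLAU and PROCR rose. The 4 windows with the motif are given here, 5′ to 3′ on the strand of the gene with the motif in capitals. They lie at chr1:94541760-94542009 (F3), chr19:43670170-43670419 (PLAUR), chr7:93890754-93891003 (TFPI2) and chr15:60397987-60398236 (ANXA2), all on the minus strand.
F3: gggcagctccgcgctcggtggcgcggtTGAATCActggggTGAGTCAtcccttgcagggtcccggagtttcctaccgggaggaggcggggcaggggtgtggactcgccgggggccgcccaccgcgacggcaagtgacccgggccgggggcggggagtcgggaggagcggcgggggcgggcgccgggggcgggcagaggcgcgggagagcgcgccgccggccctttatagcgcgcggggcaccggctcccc
PLAUR: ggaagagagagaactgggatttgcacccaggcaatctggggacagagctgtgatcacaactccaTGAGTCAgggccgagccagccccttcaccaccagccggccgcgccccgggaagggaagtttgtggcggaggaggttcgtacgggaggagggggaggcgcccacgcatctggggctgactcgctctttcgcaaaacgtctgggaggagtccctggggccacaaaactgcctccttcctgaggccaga
TFPI2: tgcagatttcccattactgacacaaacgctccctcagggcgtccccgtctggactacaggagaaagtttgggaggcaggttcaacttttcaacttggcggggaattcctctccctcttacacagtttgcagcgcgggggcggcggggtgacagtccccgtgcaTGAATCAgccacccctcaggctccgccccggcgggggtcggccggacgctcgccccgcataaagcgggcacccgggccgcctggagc
ANXA2: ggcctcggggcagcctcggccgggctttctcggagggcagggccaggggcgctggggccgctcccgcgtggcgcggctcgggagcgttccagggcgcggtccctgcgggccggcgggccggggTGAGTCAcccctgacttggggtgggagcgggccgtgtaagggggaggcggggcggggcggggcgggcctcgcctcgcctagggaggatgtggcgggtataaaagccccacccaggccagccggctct
The first base of the motif lay 223 and 210 bases before the start in F3, 186 in PLAUR, 87 in TFPI2 and 127 in ANXA2. Its open middle base was A in the only TFPI2 match and in the F3 match at 223, and G in the other matches. Neither window of PLAU, nor that of TFPI or PROCR, held these letters, which says nothing of AP-1 sites elsewhere. The GC box GGGCGG was in 5 of the 7 genes (46.2% of all genes), TATAAA in 3 (13.05% of all genes) and the NF-kB motif in 0 (2.12% of all genes). None of these overlapped the capitals. A match in these letters is a description and no evidence of binding.

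On RAS induction 8 of the 10 genes rose, ANXA2 fell, and TFPI did not pass the test. Of all genes tested, 24.8% were called higher and 26.1% lower. The largest rises were those of TFPI2, THBD, PLAU, F3 and PLAT, from 4.75-fold to 10.2-fold, and the median log2 fold change of the 10 genes was 1.70, against -0.01 for all genes tested. Of these, 6 (PLAU, PLAT, F3, THBD, TFPI2 and PROCR) rose by at least 1 on the log2 scale, as 6.78% of all genes did. In all 8 risen genes every induced library was above every non-induced library, which held for 31.8% of all genes. These are bulk libraries, in which more cells with a transcript and more transcript per cell cannot be told apart.

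Both plasminogen activators rose strongly. PLAU, which encodes urokinase, stood at 805, 701 and 664 CPM in the non-induced libraries and at 4011, 3928 and 3996 CPM in the induced ones. The groups were far apart and the induced libraries closely alike. The rise was 5.50-fold (log2 fold change 2.46, SE 0.09, adjusted p = 6.15e-10, edgeR). Among the genes tested, PLAU moved from rank 152 to rank 13 by CPM and made up 0.394% of the counts of induced cells. C10orf55, which lies over PLAU on the opposite strand, had 59 to 444 counts in a library against at least 23435 for PLAU, and how strand was treated in counting is not given in the sources used here.

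PLAT, the tissue-type activator best known from vessel walls, stood at 255, 247 and 228 CPM in non-induced and at 1165, 1145 and 1155 CPM in induced libraries. Its log2 fold change was 2.25 (SE 0.07, adjusted p = 1.52e-10). The receptor PLAUR holds urokinase at the cell surface. It stood at 84.5, 77.6 and 76.2 CPM in non-induced and at 141, 146 and 149 CPM in induced libraries. That is a rise of 0.87 on the log2 scale (SE 0.09, adjusted p = 4.04e-06), smaller than that of its ligand.

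Within a library, the log2 ratio of PLAU to PLAUR counts went from 3.18 ± 0.06 to 4.78 ± 0.05 (SD, n = 3), a difference of 1.59. A ratio of counts does not depend on how libraries are scaled, and its difference was tested by exact permutation of the libraries (two-sided), where 3 against 3 cannot give a p below 0.1. It reached that p of 0.1 here, as the libraries did not overlap. The ratio of PLAU to PLAT moved little, from 1.57 ± 0.08 to 1.78 ± 0.01 (SD, n = 3), also without overlap (exact permutation p = 0.1).

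ANXA2, the annexin that with S100A10 forms a docking site for plasminogen and PLAT, was the gene that fell. It stood at 2428, 2209 and 2193 CPM in non-induced and at 1683, 1739 and 1824 CPM in induced libraries. The fall was 0.77-fold (log2 fold change -0.38, SE 0.07, adjusted p = 0.000454), and no library overlapped. Its partner S100A10 fell further, from 266, 221 and 220 CPM to 87.0, 88.6 and 92.2 CPM (log2 fold change -1.40, SE 0.10, adjusted p = 2.63e-07). ANXA2 has processed pseudogenes of like sequence, whose own counts were 0 to 32 in a library, against at least 49070 for ANXA2.

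Tissue factor rose about as much as urokinase. F3 stood at 112, 115 and 111 CPM in non-induced and at 607, 592 and 610 CPM in induced libraries. Both groups were tight and lay wide apart, and the rise was 5.34-fold (log2 fold change 2.42, SE 0.06, adjusted p = 4.17e-11). F2R, the thrombin receptor, stood at 452, 456 and 489 CPM in non-induced and at 936, 926 and 886 CPM in induced libraries. Its log2 fold change was 0.98 (SE 0.09, adjusted p = 2.30e-06, edgeR).

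The related Kunitz inhibitors TFPI and TFPI2 behaved differently. TFPI2, which inhibits plasmin and other serine proteases in the matrix, had the largest rise of the 10 genes. It stood at 67.1, 61.6 and 68.8 CPM in non-induced and at 680, 658 and 667 CPM in induced libraries. This is 10.2-fold (log2 fold change 3.34, SE 0.08, adjusted p = 3.03e-11), and 99.0% of genes had a smaller log2 fold change.

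TFPI, the inhibitor of the tissue factor complex, stood at 70.8, 112 and 137 CPM in non-induced libraries and at 156, 156 and 134 CPM in induced ones. The groups overlapped, with non-induced library C above induced library B. The log2 fold change was 0.48 (SE 0.27, 95% interval -0.11 to 1.07, adjusted p = 0.161). It was positive in all 15 alternative analyses and called in 4: without the filter on low counts (0.49), with an offset for GC content and length (0.47), with the library letter as a term (0.78), and with both of the latter (0.64). In each of the 4 groups the library with the highest GC tilt had the lowest TFPI level, and the part of the tilt in the spread of TFPI was not tested. The longest TFPI transcript has 7690 bases and a GC content of 41.5%, and the longest TFPI2 transcript has 2445 bases and one of 39.8%.

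**Figure D1:**
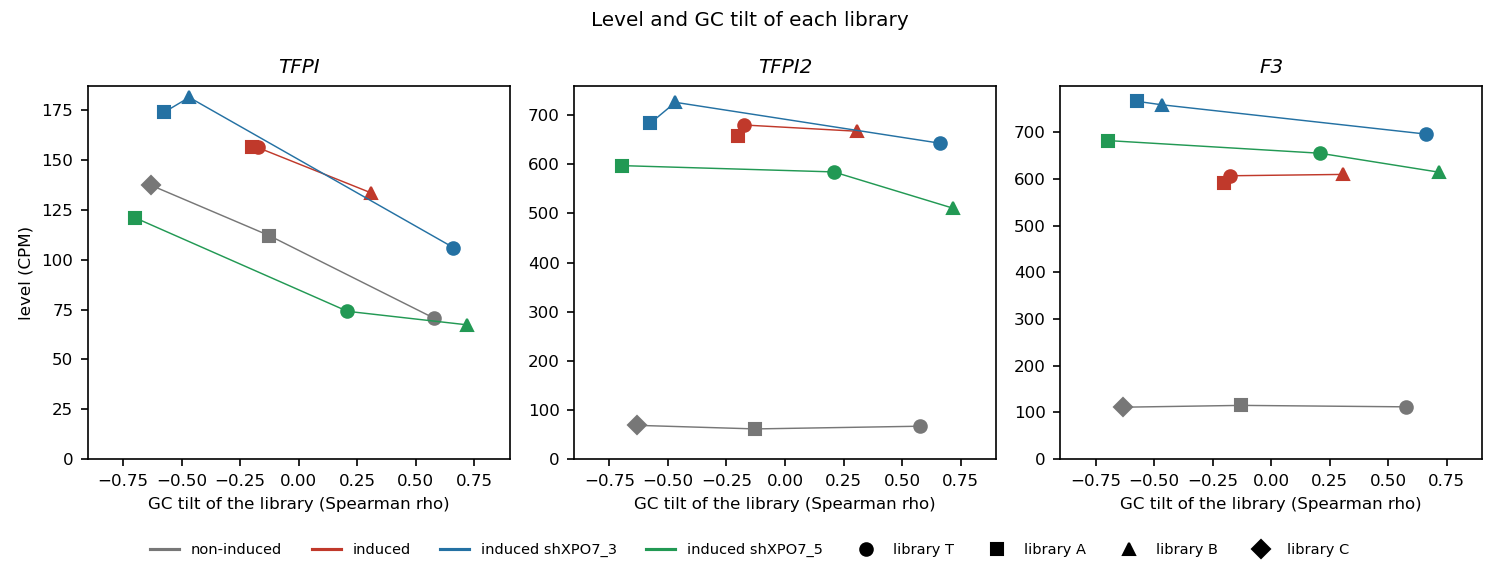
Levels in CPM of TFPI, TFPI2 and F3 (vertical axes, from 0) against the GC tilt of each of the 12 libraries (horizontal axes, Spearman rho across genes), with lines joining the 3 libraries of a group. TFPI was lowest at the highest tilt in every group, while the non-induced and induced libraries of F3 and TFPI2 were nearly level across it.

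The ratios of tissue factor to its inhibitor, and of the inhibitors to each other, also changed. The log2 ratio of F3 to TFPI counts rose from 0.13 ± 0.49 to 2.02 ± 0.15 (SD, n = 3), by 1.89 and without overlap (exact permutation p = 0.1). That of TFPI to TFPI2 changed from 0.65 ± 0.50 to -2.17 ± 0.13. TFPI thus had the higher counts in the non-induced group and TFPI2 in the induced group, although per exon length TFPI2 was the higher in both groups. F3 to THBD went the other way, from 7.08 ± 0.44 to 6.43 ± 0.06 (SD, n = 3), as THBD rose more than F3 (exact permutation p = 0.1).

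**Figure D2:**
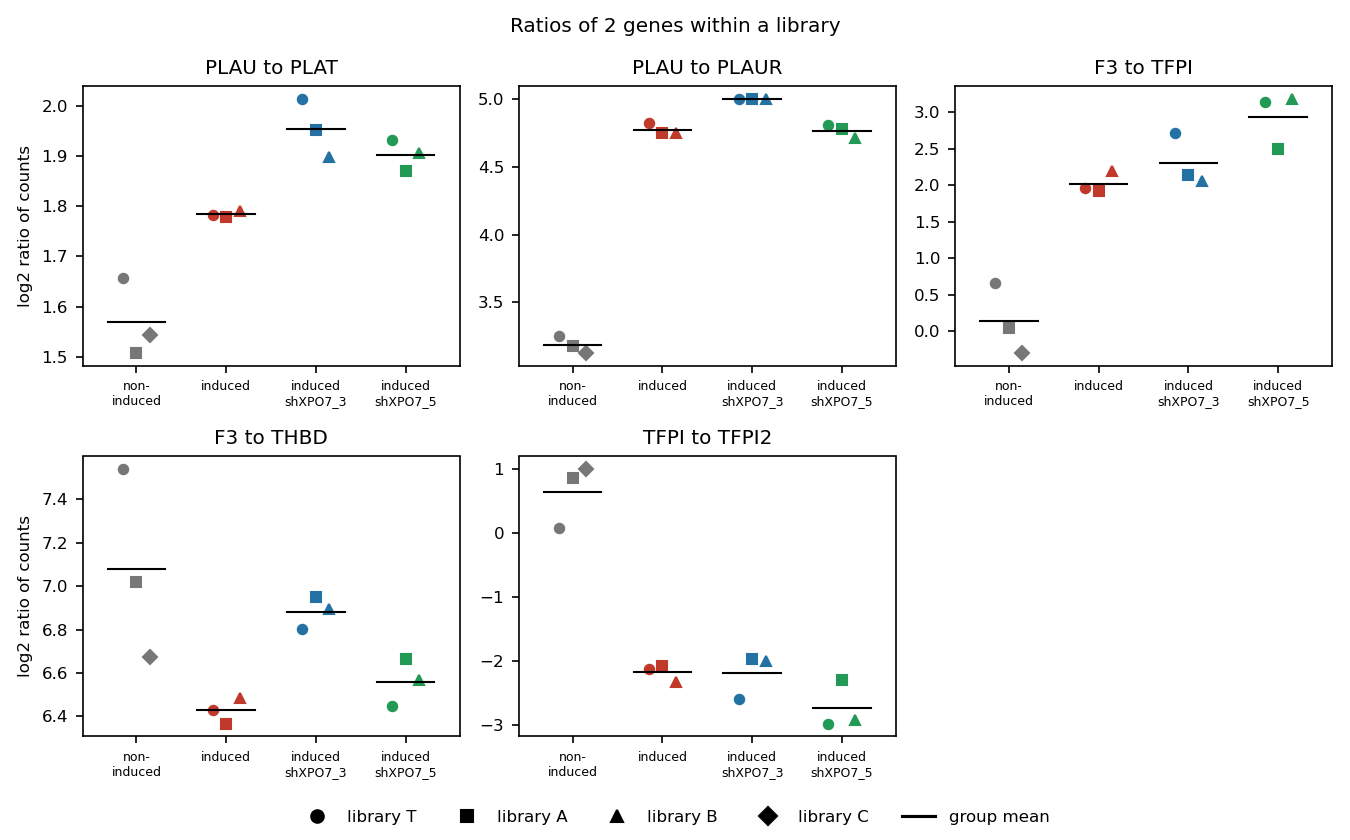
Log2 ratios of the counts of 2 genes within each library (vertical axes) by group, with a marker shape for the library letter and a line for the group mean. On induction TFPI to TFPI2 went from 0.65 to -2.17, PLAU to PLAUR rose by 1.59, and PLAU to PLAT moved by only 0.21.

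The anticoagulant receptors rose from low levels. THBD, which binds thrombin, stood at 0.587, 0.874 and 1.08 CPM in non-induced libraries (19 to 38 counts) and at 7.02, 7.16 and 6.80 CPM in induced ones (202 to 337 counts). The rise was 8.18-fold (log2 fold change 3.03, SE 0.15, adjusted p = 8.38e-09), but the induced level remained the lowest of the 10 genes. PROCR, which presents protein C, stood at 25.4, 23.1 and 22.6 CPM in non-induced and at 52.2, 49.5 and 55.8 CPM in induced libraries. Its log2 fold change was 1.15 (SE 0.09, adjusted p = 4.76e-07, edgeR). MMP24OS overlaps PROCR on the opposite strand with 1695 to 3709 counts in a library, a number like that of PROCR (798 to 3136), so PROCR is less certain than the others where strand was not used. Both receptors are best known from endothelium, of whose 8 markers PECAM1 and CDH5 were at 0, TIE1 rose and TEK fell, as given above; the part of other cells in the rise of THBD and PROCR was not tested.

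Between genes, levels were compared per length of exons as RPKM (CPM divided by exon length in kilobases). In non-induced cells ANXA2 (258 ± 15 RPKM, SD, n = 3) and PLAU (245 ± 25 RPKM) were highest and did not differ beyond their spread. F2R followed at 114 RPKM, then F3 at 39.3 and PLAT at 36.7 RPKM, TFPI2 at 24.5, PLAUR at 17.8, PROCR at 14.0, TFPI at 9.11 and THBD at 0.206 RPKM. In induced cells PLAU stood alone at 1349 ± 15 RPKM. TFPI2 (249 RPKM), F2R (225 RPKM), F3 (210 RPKM), ANXA2 (198 RPKM) and PLAT (175 RPKM) came next, and PLAUR, PROCR, TFPI and THBD were at 32.6, 31.0, 12.7 and 1.70 RPKM. With the longest transcript in place of all exons, ANXA2 was at 645 RPKM in non-induced and 496 RPKM in induced cells, above PLAU (272 RPKM) in the former and second to it (1497 RPKM) in the latter. By that length PLAT (334 RPKM), TFPI2 (273 RPKM), F3 (264 RPKM) and F2R (240 RPKM) followed in induced cells, with PLAUR at 90.2 RPKM. In non-induced cells PLAT (70.2 RPKM) was then above F3 and PLAUR (both 49.3 RPKM). The standing of ANXA2, also against PLAU in non-induced cells, and the order of the middle genes thus depended on the length used.

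The other genes of these pathways moved both ways. Of 52 such genes 31 could be tested, with 15 rising and 5 falling (against 24.8% and 26.1% of all genes), and their median log2 fold change was 0.28. The 21 that could not be tested include plasminogen (PLG), prothrombin (F2), factor VII (F7), vitronectin (VTN) and the fibrinogen chains (FGA, FGB, FGG), most of them liver products. Of these 21, 20 had at most 10 counts in every library and 6 were at 0 throughout.

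In the list labelled plasmin inhibitors, which also holds inhibitors of other proteases, 6 of the 7 genes tested rose and SERPINB6 did not pass the test. SERPINB2, a serpin that inhibits urokinase, stood at 49.5, 44.8 and 48.2 CPM in non-induced and at 189, 205 and 193 CPM in induced libraries (log2 fold change 2.04, SE 0.07, adjusted p = 4.94e-10). A2M, a broad protease trap, rose by 2.27, SERPINE2 by 1.46, SERPINI1 by 1.22 and SERPINB8 by 1.21 on the log2 scale.

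All 3 other receptors of the thrombin receptor family were called higher. F2RL1 (PAR2) answers to trypsin-like proteases and to tissue factor with factor VIIa. It stood at 28.9, 28.5 and 27.4 CPM in non-induced and at 261, 257 and 255 CPM in induced libraries. The log2 fold change was 3.19 (SE 0.07, adjusted p = 2.09e-11, edgeR). F2RL3 (PAR4) rose by 3.57 from 0.104 to 1.26 CPM (3 to 5 counts in a non-induced library), and F2RL2 (PAR3) by 0.24 from 108 to 127 CPM. Of the 6 plasminogen-binding genes tested, S100A10 and KRT8 (-0.63) fell, C1QBP (0.36) and PLGRKT (0.28, or 0.15 and not called with the GC offset) rose, and ENO1 and LRP1 (-0.55, adjusted p = 0.0542, called in 9 of 15 alternatives) did not pass the test. Of 4 clotting factors tested, F10 (factor X) fell to 0.288 times its non-induced level. Of 5 anticoagulant genes tested, SERPIND1 (heparin cofactor II, 2.86) and ADTRP (2.27), named for raising TFPI activity, rose, while GAS6 (-2.14) and ANXA5 (-0.74) fell and PROS1 did not pass the test. Of 6 genes for the maturation of clotting factors, MCFD2 (0.59) and FURIN (0.54) rose.

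Under XPO7 knockdown none of the 10 genes passed the test by edgeR. In that fit 0 of the 10 genes were called with shXPO7_3, where 0.124% of all genes were called, and 0 with shXPO7_5, where 0.589% were. At an unadjusted p under 0.05 there were 2 and 4 of the 10, against 6.41% and 21.6% of all genes, and DESeq2 called 1 (F3) and 0. The median log2 difference from induced cells was 0.04 with either shRNA. The groups did not overlap for 3 of the 10 genes with shXPO7_3 (14.6% of all genes) and for 5 with shXPO7_5 (26.8% of all genes). Both comparisons use the same 3 induced libraries.

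F3 came closest to a call. It stood at 696, 766 and 759 CPM with shXPO7_3 and at 655, 682 and 614 CPM with shXPO7_5, and all 6 libraries were above the 3 induced ones. With shXPO7_3 the log2 difference was 0.30 (SE 0.06, 95% interval 0.17 to 0.43, adjusted p = 0.0921). With shXPO7_5 it was 0.11 (95% interval -0.02 to 0.24, adjusted p = 0.266). The offset for GC content and length, which takes out each library's trend without use of the groups, gave 0.33 (adjusted p = 0.000625) and 0.24 (adjusted p = 0.00441), both past the threshold. The shRNAs themselves differed by 0.19 (shXPO7_5 lower, adjusted p = 0.388).

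PLAU stood at 5131, 4419 and 4494 CPM with shXPO7_3 and at 4742, 4087 and 4769 CPM with shXPO7_5, again above every induced library. The log2 differences were 0.23 (95% interval 0.04 to 0.43, adjusted p = 0.579) and 0.19 (95% interval -0.002 to 0.38, adjusted p = 0.234). With the GC offset they were 0.22 (adjusted p = 0.00712) and 0.07 (adjusted p = 0.294). The log2 ratio of PLAU to PLAUR counts was 5.00 in all 3 shXPO7_3 libraries, above the 4.78 ± 0.05 (SD, n = 3) of induced libraries without overlap (exact permutation p = 0.1). With shXPO7_5 it was 4.77 ± 0.05, within the spread of the induced libraries (exact permutation p = 0.9). PLAU to PLAT was higher by 0.17 with shXPO7_3 and by 0.12 with shXPO7_5, without overlap (exact permutation p = 0.1 each). So were F3 to THBD with shXPO7_3 (0.45) and F3 to TFPI with shXPO7_5 (0.92), at the same p. The libraries overlapped for F3 to TFPI with shXPO7_3 (0.28), F3 to THBD with shXPO7_5 (0.13) and TFPI to TFPI2 with both (-0.02 and -0.56).

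**Figure D3:**
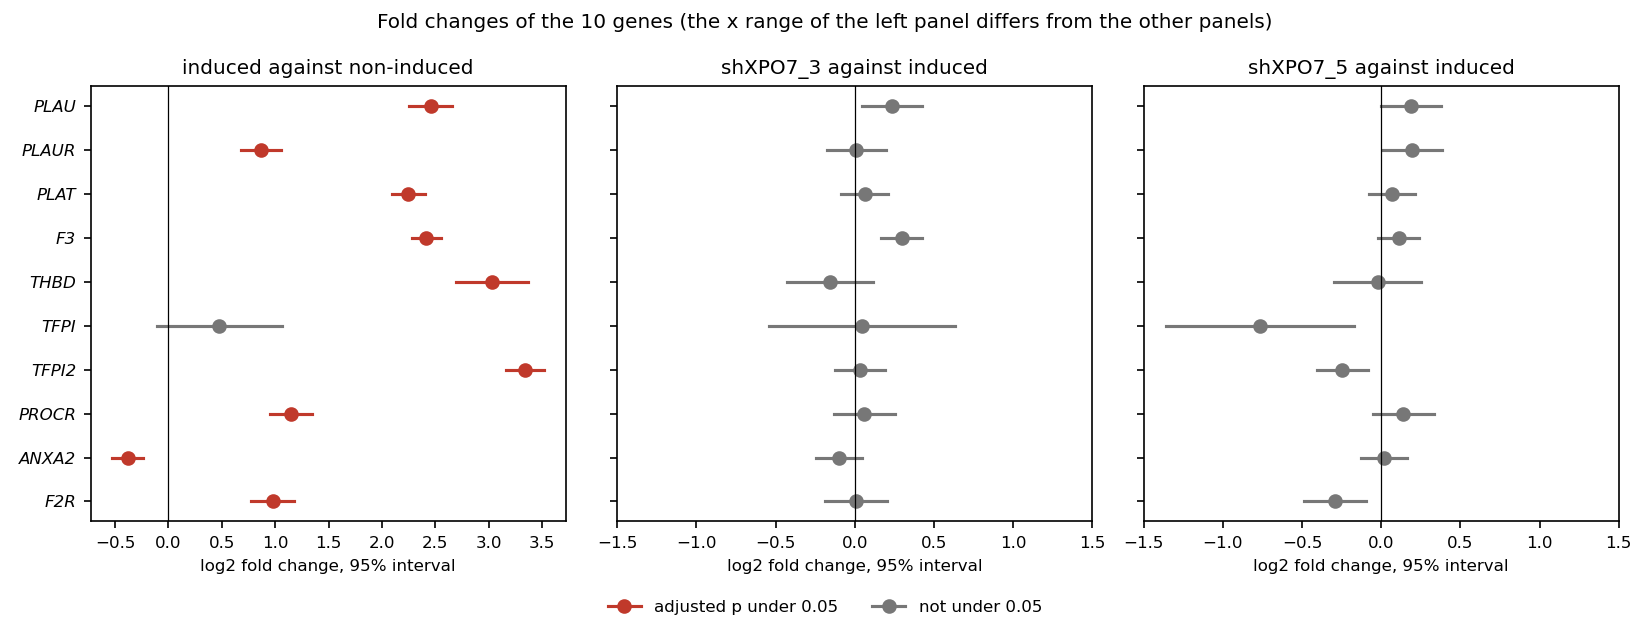
Log2 fold changes with 95% intervals (horizontal axes) of the 10 genes for induction and for each shRNA against induced cells; red marks an adjusted p under 0.05. On induction 9 genes were called and under either shRNA 0, where the interval of TFPI was the widest.

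With shXPO7_5 the lower values were those of TFPI, F2R and TFPI2. TFPI stood at 74.1, 121 and 67.4 CPM, below all 3 induced libraries, with a log2 difference of -0.77 (95% interval -1.36 to -0.17, adjusted p = 0.181). F2R stood at 700, 849 and 698 CPM (log2 difference -0.29, 95% interval -0.49 to -0.09, adjusted p = 0.147). TFPI2 stood at 584, 597 and 510 CPM (log2 difference -0.24, 95% interval -0.41 to -0.08, adjusted p = 0.138). With the GC offset these became -0.56 (adjusted p = 0.0968), -0.19 (adjusted p = 0.0778) and 0.04 (adjusted p = 0.866), so the sign of TFPI2 turned while the others kept theirs. Without shXPO7_5 library A, the one with the lowest GC tilt, TFPI (-1.07), F2R (-0.39), TFPI2 (-0.29), PLAU (0.26) and PLAUR (0.27) were called, along with 23% of all genes.

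With shXPO7_3 the same 3 genes were near their induced levels. TFPI stood at 106, 174 and 181 CPM, TFPI2 at 643, 684 and 726 CPM and F2R at 815, 981 and 968 CPM, and each overlapped the induced libraries. The 95% interval of the log2 difference was -0.54 to 0.64 for TFPI, -0.13 to 0.19 for TFPI2 and -0.19 to 0.20 for F2R. Set against each other, the shRNAs differed in 0 of the 10 genes by edgeR (5 at an unadjusted p under 0.05, against 11.9% of all genes, and 0 by DESeq2), and in 0.0131% of all genes. The largest difference was that of TFPI, -0.81 for shXPO7_5 minus shXPO7_3 (95% interval -1.41 to -0.22, adjusted p = 0.388).

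For the remaining genes the differences from induced cells were small. THBD stood at 6.23, 6.19 and 6.37 CPM with shXPO7_3, below every induced library (log2 difference -0.16, 95% interval -0.43 to 0.11), and at 7.48, 6.70 and 6.47 CPM with shXPO7_5. PLAT stood at 1270, 1142 and 1206 CPM and at 1242, 1119 and 1272 CPM, with intervals of -0.08 to 0.21 for both shRNAs. PLAUR stood at 160, 138 and 141 CPM with shXPO7_3 and at 169, 148 and 182 CPM with shXPO7_5 (log2 differences 0.01 and 0.20, adjusted p = 0.999 and 0.222). The intervals of PROCR ran from -0.13 to 0.25 and from -0.05 to 0.33, and those of ANXA2 from -0.24 to 0.05 and from -0.13 to 0.17. The knockdown groups were not tested against the non-induced group. For the genes called on induction, the 6 knockdown libraries lay below all 3 non-induced ones for ANXA2 and above them for the others. The share of all genes for which such a separation held was not taken, so it is no result about these genes in particular.

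Of the other pathway genes 31 were tested. At an unadjusted p under 0.05 by edgeR there were 8 with shXPO7_3 and 11 with shXPO7_5, against 6.41% and 21.6% of all genes. DESeq2 called 2 with each shRNA, against 88 and 426 of all 15284 genes tested. After adjustment edgeR called 0 with shXPO7_3 (0.124% of all genes) and 2 with shXPO7_5 (0.589% of all genes). These 2 were protease inhibitors that also rose on induction. A2M stood at 11.1, 10.9 and 10.7 CPM in induced libraries, at 17.2, 14.8 and 14.4 CPM with shXPO7_3 and at 20.01, 17.5 and 17.7 CPM with shXPO7_5. All 6 knockdown libraries were above the induced ones, by 0.51 with shXPO7_3 (adjusted p = 0.0751) and by 0.76 with shXPO7_5 (adjusted p = 0.0104) on the log2 scale. SERPINB2 stood at 236, 243 and 265 CPM and at 272, 245 and 245 CPM, differences of 0.34 (adjusted p = 0.115) and 0.38 (adjusted p = 0.0406). With the GC offset the latter was 0.62, and it was not called with the library letter as a term (adjusted p = 0.052) or in a fit to 2 groups (adjusted p = 0.11). Neither gene was called with shXPO7_5 without induced library T (A2M 0.78, SERPINB2 0.35), induced library A (0.76 and 0.41) or shXPO7_5 library T (0.70 and 0.33). Without induced library B or shXPO7_5 library B, SERPINB2 was not called (0.37 and 0.40).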

How the data were processed

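The values deposited by the authors are raw read counts per gene and library. Libraries were made with an Illumina stranded mRNA kit from total RNA. The submitters' processing notes list CASAVA 1.8.4, TopHat2 2.0.11 and featureCounts 1.18.0, with hg19/GRCh37 as the build. How strand and multiply matching reads were handled, and with which annotation, is not given in the sources used here. Spike-in entries (92) were at 0 and were left out. Groups were taken from the labels, and the library pairs of a group differed beyond sampling noise (4.57 to 61.7 per gene by chi-square).

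The analysis used edgeR 4.0.16 (R 4.3.3, limma 3.58.1): filterByExpr, TMM scaling and 1 quasi-likelihood fit to all 12 libraries with 4 group means and no covariates. Benjamini-Hochberg adjustment covered all 15284 genes tested, at a threshold of 0.05, and "called" or "rose" means past it. CPM use TMM-scaled library sizes, and RPKM the exon length in GENCODE release 29. Ratios used a pseudocount of 0.5 counts. That annotation is on GRCh38, so matching used the Ensembl identifiers, and all positions given are on GRCh38. Transcript GC content and length were known for 97.3% of genes tested.

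The alternatives tried were scaling by RLE or by upper quartile, dropping the filter on low counts, requiring 1 CPM in 6 libraries, the library letter as a replicate block, DESeq2 1.42.0, an offset for GC content and length (a spline with 5 degrees of freedom per library), that offset with the block, a fit to only 2 groups, leaving out every library once, and a minimum log2 fold change of 1. The 10 genes, the pathway and marker lists and these tests were chosen with earlier results of these data known, so no list is independent evidence. Named genes were all 10, XPO7, and of the pathway list up to 10 called each way per comparison, with SERPINB2, S100A10 and F2RL1 whatever their values; 1 gene under this rule, counted in its list, is not reported here; genes named as not called complete a count. Errors come from the spread among 3 libraries a group, and THBD and F2RL3 rest on few counts in the non-induced libraries.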

Additional observations from a re-analysis of the deposited data

How the results depend on the processing

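On induction the 9 called genes were called in the same direction in all 15 alternatives, and TFPI, as given above, in 4 of them. Upper-quartile factors moved the median of all genes by about -0.10 on the log2 scale, with 38.3% of 7505 calls higher, against 3793 of 7777 with TMM, and left the direction of the 10 genes as it was (ANXA2 -0.48). Of the other pathway genes 12 were called with a log2 fold change of at least 1 either way, in place of 20. Of all genes 6.78% were called higher by that much. The share called lower by that much was not taken, so this count is no result about these genes in particular. With upper-quartile factors the induction calls of C1QBP (0.26), F2RL2 (0.14) and PLGRKT (0.19) were lost, and that of PLGRKT also without the filter (0.29), with the GC offset (0.15) and with the offset and block (0.07). Induction calls were gained for LRP1 in 9 alternatives, LMAN1 in 7, VWF in 4, ENO1 in 3 and GGCX in 2. Under shXPO7_3 the number of the 10 genes called was 1 with DESeq2 and 2 with the GC offset, alone or with the replicate block (F3 and PLAU), and that of the other pathway genes was 2 with DESeq2, 2 with the GC offset (A2M and GAS6, the latter -0.34) and 3 with the offset and the block. Under shXPO7_5 it was 1 of the 10 genes without the filter (TFPI), 1 with the GC offset (F3) and 3 with the offset and block (F3, TFPI and F2R), and from 0 to 5 with a library left out. The 5 came without shXPO7_5 library A, where calls over all genes went from 90 to 3634. The cause was not tested. Of the other pathway genes shXPO7_5 gave 1 call with the block, 1 in a fit to 2 groups and 0 at a minimum log2 fold change of 1, and 0 to 9 with a library left out, the 9 again without library A. Between the shRNAs 1 of the 10 genes was called with the offset and block (TFPI, -0.61), as were 58 of all 15284 genes tested. Over all genes shXPO7_3 gave 19 calls, 339 with the GC offset, 386 with the offset and block and 88 with DESeq2. It gave 1 call when any of the 6 libraries compared was left out. Over all genes shXPO7_5 gave 470 calls with the offset, 955 with the offset and block, 426 with DESeq2 and 10 in a fit to 2 groups. Without the filter it gave 217 among 31672 genes tested, against 90 of 15284 in the main fit. No call of the 10 genes or of the pathway genes changed direction. No ratio could pass the threshold under any alternative. Near-zero differences of ratios turned sign with a library left out, the largest that of TFPI to TFPI2 with shXPO7_3, from -0.02 to 0.18 without shXPO7_3 library T. The letters were not taken to pair libraries. Deviations of same-lettered libraries from their group means correlated from -0.23 to 0.59. Of 12 libraries 6 were closest to one of their own letter, every T library among them. Library C had no other of its letter to match. With the replicate block all 10 genes were called on induction (TFPI, adjusted p = 0.0129), 0 under either shRNA, and calls over all genes were 7987 on induction, 13 with shXPO7_3 and 149 with shXPO7_5.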
